A study of Rattus norvegicus with 24 samples.

Results

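The NF-κB subunits, their inhibitors and the kinase that releases them were followed as a set of 10 genes in the blood of rats given oat beta-glucan diets and lipopolysaccharide (LPS). A gene was taken when the name in the array files was exactly Nfkb1, Nfkb2, Rel, Rela, Relb, Nfkbia, Nfkbib, Nfkbie, Tnfaip3 or Ikbkb, out of 21654 named genes on the array. Probes carried 8 of these names, 9 probes in all among 30367, and no probe carried the names Rel and Relb. In 7 genes the brightest probe was bright enough to be tested. The A20 gene Tnfaip3 was not well above background on any of the 24 arrays and has no measured level.

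There were 24 two-color arrays of the SurePrint G3 Rat type, with 4 arrays for each of 6 groups of male Sprague Dawley rats that were 8 weeks old when obtained and were kept for 6 weeks. C-G0 received saline and the semi-synthetic control diet. LPS-G0 received the same diet and intravenous E. coli LPS at 10 mg per kg, which was given to induce enteritis. Saline and LPS were each given by repeated intravenous injection. C-G1 and LPS-G1 were the saline and LPS groups whose feed also held the larger oat beta-glucan, of high molecular weight (G1), and C-G2 and LPS-G2 those given the smaller one, of low molecular weight (G2). Each array held the blood RNA of a single rat in Cy3, as labelled, and a pooled blood RNA of the study's rats in Cy5 as the common reference. The label that states the injection reads control for LPS-G0 replicates 3 and 4, whose titles name LPS. They were kept in LPS-G0. Values without them are given for Nfkbib in LPS-G0 vs. C-G0 and for the pathway genes called in LPS-G1 vs. LPS-G0. For the other results that involve LPS-G0, leaving them out is only among the alternatives that are summarized, so these also depend on the labels. Blood was taken after the feeding period, and its interval from the last LPS injection was not given in the sources used here.

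NF-κB is a family of dimeric transcription factors that are held in the cytoplasm of resting cells by IκB proteins. When receptors such as the LPS receptor TLR4 are engaged, the IκB kinase phosphorylates the IκB proteins, which are then degraded, and the released dimers enter the nucleus and switch on genes of inflammation and survival. Several of those genes encode the inhibitors themselves, so that the pathway is limited by its own products. Much of this control acts on protein, which the arrays did not measure. Because whole blood was sampled, fewer cells of a type and less RNA per cell cannot be told apart in any value given here.

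The oligonucleotides that read the subunits and both of the brighter inhibitors are shown because every value below is the light on these 60 bases. Those of Nfkb1, Nfkb2, Rela, Nfkbia and Nfkbib were placed by the array files on the rn4 assembly at chr2:233091704-233091763, chr1:251526647-251526839, chr1:208272360-208272419, chr6:75730438-75730497 and chr1:83866200-83866259. The span for Nfkb2 was longer than its oligonucleotide. They are written in lower case throughout:
Nfkb1 probe: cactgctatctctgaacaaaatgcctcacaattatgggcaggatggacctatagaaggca
Nfkb2 probe: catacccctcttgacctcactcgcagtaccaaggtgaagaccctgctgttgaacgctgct
Rela probe: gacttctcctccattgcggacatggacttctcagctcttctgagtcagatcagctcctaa
Nfkbia probe: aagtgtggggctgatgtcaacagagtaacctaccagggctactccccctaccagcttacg
Nfkbib probe: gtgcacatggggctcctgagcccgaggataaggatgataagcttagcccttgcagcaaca
The probe of Nfkbie lay at chr9:11044255-11044314 and that of Ikbkb at chr16:73858022-73858081, and the files gave no position for the Tnfaip3 probe. The other Rela probe, at chr1:208263526-208263582, was well above background on 4 of 24 arrays and was not tested.

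NF-κB dimers bind the kB consensus, a motif of 10 bases, and the 250 bases before the start of each gene were searched for it on both strands, with overlapping matches counted as found. RefSeq promoters on the GRCr8 assembly were available for 8 members, and 5 of them held a match, Nfkb2, Rel, Nfkbia, Nfkbie and Tnfaip3. Among 33469 rat promoters of the same length, 6.33% held one. The promoters of the inhibitors are shown because their transcripts gave the differences described below, and the match is in capitals. They lie at chr6:78597073-78597322, chr1:93181388-93181637 and chr9:22947873-22948122, all on the minus strand:
Nfkbia promoter: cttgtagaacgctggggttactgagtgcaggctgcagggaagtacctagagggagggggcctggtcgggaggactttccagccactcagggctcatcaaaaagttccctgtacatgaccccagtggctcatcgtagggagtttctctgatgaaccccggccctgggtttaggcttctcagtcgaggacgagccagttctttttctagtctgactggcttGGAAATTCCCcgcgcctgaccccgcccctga
Nfkbib promoter: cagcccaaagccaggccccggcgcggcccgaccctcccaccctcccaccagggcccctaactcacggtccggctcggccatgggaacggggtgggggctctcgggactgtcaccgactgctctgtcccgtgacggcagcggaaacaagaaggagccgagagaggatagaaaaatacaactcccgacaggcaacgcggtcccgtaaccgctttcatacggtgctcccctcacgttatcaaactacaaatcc
Nfkbie promoter: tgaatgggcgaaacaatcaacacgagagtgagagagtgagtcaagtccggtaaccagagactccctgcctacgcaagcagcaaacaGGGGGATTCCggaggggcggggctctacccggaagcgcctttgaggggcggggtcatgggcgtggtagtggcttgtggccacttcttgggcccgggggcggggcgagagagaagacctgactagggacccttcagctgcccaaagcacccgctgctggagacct
A match describes letters and is no evidence of binding, and none was found in these windows of Nfkb1, Rela and Nfkbib.

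All signed values are the log2 of Cy3 over Cy5, so that a positive value means more signal from the rat than from the reference. The direction follows the sample labels. The dyes named in the study's methods would turn every sign, and the choice rests on the spread of the channels. Among the 7074 probes that were bright in both dyes throughout, the typical SD within groups (median) was 0.331 in Cy3 and 0.187 in Cy5, and 96.1% of them varied more in Cy3. Correlations between arrays over all probes ran from -0.158 to 0.471, with a median of 0.208. Values this weak cannot show whether a single array had its dyes exchanged. The blood cell lists were detected as follows: 6 of 6 erythroid, 6 of 6 platelet, 5 of 6 monocyte, 5 of 7 neutrophil, 6 of 8 T-cell, 6 of 7 NK-cell and 4 of 7 B-cell genes on the array were tested, and the T-cell gene Cd28 and the neutrophil gene Ltf were above background on no array. The rat channel had 7786 to 15385 probes above background on each array, and the number of arrays limits the precision. C-G0 replicate 1 and C-G1 replicate 2 stood apart, with a median absolute distance of 0.482 and 0.495 from the median of all arrays, against 0.129 to 0.324 on the other arrays. Results that rest on them are given with and without them, and leaving out both was an alternative chosen after the data were seen. Tests were made with limma, p was adjusted over all probes tested, and an adjusted p under 0.05 counts as a call whatever the size of the change.

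**Figure D1:**
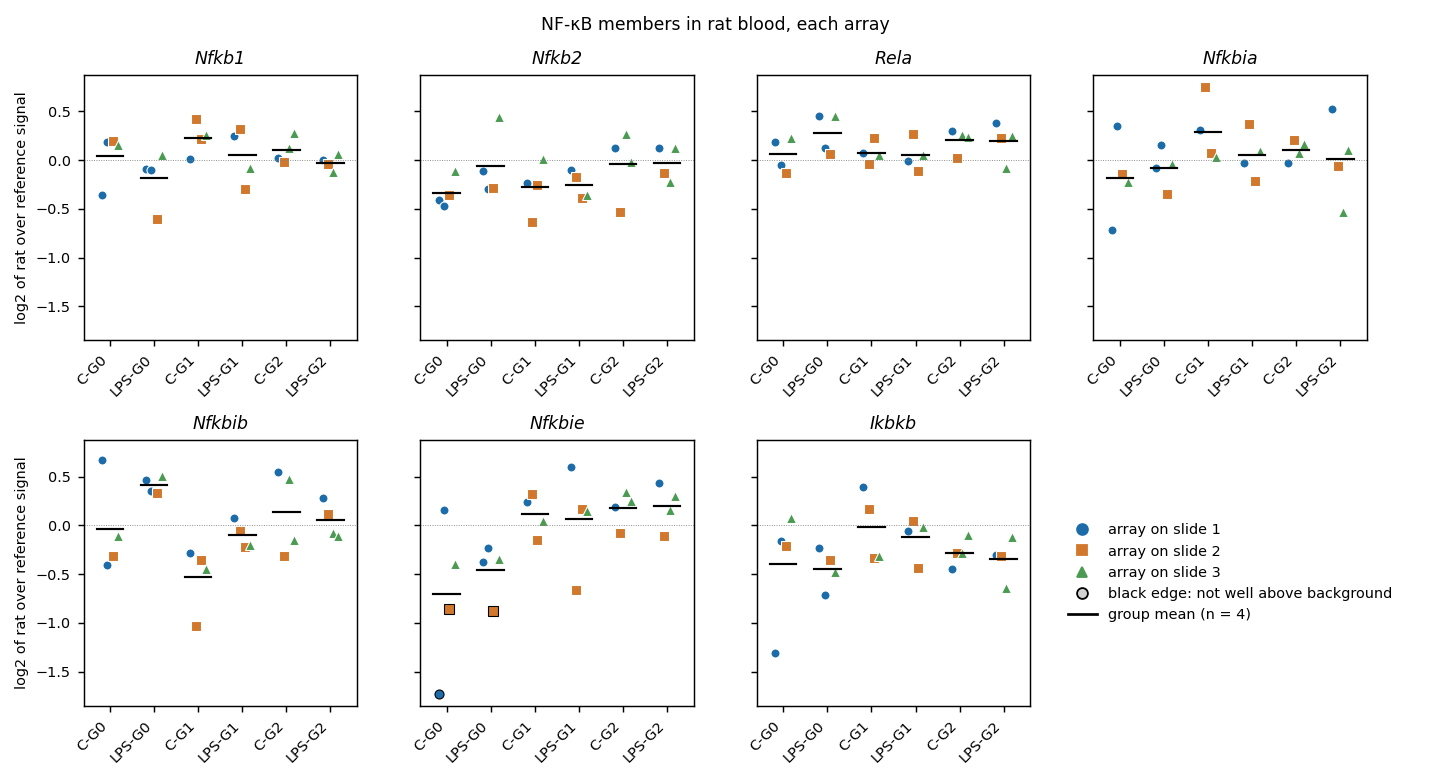
The log2 of rat over reference signal (y axis) of the 7 tested members is plotted for each array in the 6 groups (x axis), with the marker showing the slide and the line the mean of 4 arrays. Nfkbie lay lowest in C-G0 and LPS-G0, Nfkbib lay highest in LPS-G0 and lowest in C-G1, and C-G0 replicate 1 was the lowest array of Nfkbie and Ikbkb.

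None of the 7 members was called in any of 9 comparisons between groups, and none reached a 2-fold difference. Of these 63 differences, 7 had an unadjusted p under 0.05, all of them in the IκB genes Nfkbia, Nfkbib and Nfkbie, and in 4 the groups did not overlap. Over the 9 comparisons, 1.09% to 27.9% of all probes tested had such a p, and 1.07% to 21.9% did not overlap. Beside these shares the counts are not read as a result about the members. The smallest adjusted p was 0.103, for Nfkbib in LPS-G1 vs. LPS-G0. The largest difference was 0.88 on the log2 scale, for Nfkbie in C-G2 vs. C-G0. The 95% confidence intervals of all 63 lay between 0.518-fold and 2.78-fold. In simulated data with the same spread of each probe, the fit found 58.5% to 64% of 2-fold changes and 6% to 6.5% of 1.5-fold changes. The simulated noise was independent between probes, with no slide effect and no array that stood apart. These shares check the fit and are not the power of the comparisons made here.

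The subunits varied little. Rela, the p65 subunit that carries the main transactivating activity, had the narrowest spread of the tested members, from -0.13 to 0.46 over 24 arrays, with an SD of 0.171. Its levels in LPS-G0 were 0.45, 0.13, 0.06 and 0.46, and those in C-G0 were 0.19, -0.05, -0.13 and 0.23. These groups overlapped, and the difference of 0.22 had a 95% interval of -0.11 to 0.54 (limma, adjusted p = 0.525).

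Nfkb1, which encodes p105 and the p50 made from it, lay between -0.61 and 0.42. It was lowest in LPS-G0, at -0.19 ± 0.289 (SD, n = 4), and highest in C-G1, at 0.22 ± 0.167 (SD, n = 4). LPS-G0 was 0.23 below C-G0 (difference -0.23, SE 0.18, limma adjusted p = 0.562). C-G0 replicate 1, at -0.35, lay apart from the other C-G0 arrays, which read 0.19, 0.19 and 0.16, and without it the difference was -0.37 (limma, adjusted p = 0.163). The means of Nfkb1 in LPS groups were below those of the saline groups on each diet, but with all arrays no such difference had an unadjusted p under 0.05. The difference between LPS-G0 and C-G0 passed that limit without C-G0 replicate 1 and after normexp and loess (difference -0.30, limma adjusted p = 0.251).

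Nfkb2, which encodes p100 and the p52 of the alternative pathway, was at -0.41, -0.47, -0.35 and -0.11 in C-G0 and at -0.11, -0.29, -0.28 and 0.44 in LPS-G0. The difference of 0.28 had an interval of -0.08 to 0.63 (limma, adjusted p = 0.449). Its largest other differences were 0.30 in C-G2 vs. C-G0 and 0.24 in C-G2 vs. C-G1, and both intervals held 0.

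Nfkbib, the gene of IκBβ, the inhibitor that is resynthesized slowly after activation, gave the smallest p among members in LPS-G0 vs. C-G0 and in LPS-G1 vs. LPS-G0. Its levels in LPS-G0 were 0.47, 0.35, 0.33 and 0.50, the highest group mean and the tightest group (0.41 ± 0.085, SD, n = 4). In C-G0 they were 0.67, -0.41, -0.32 and -0.11. One C-G0 array lay above every LPS-G0 array, and the other 3 lay below them all. The difference for LPS-G0 vs. C-G0 was 0.45 (SE 0.194, limma p = 0.0317, adjusted p = 0.287), at an exact permutation p of 0.143, where the smallest possible is 0.0286. No member was called there, and 0.0097% of all probes were, while 1 member and 15.2% of probes had an unadjusted p under 0.05. The groups did not overlap for 0 members and 5.04% of probes.

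That comparison turned on C-G0 replicate 1. Without it Nfkbib was 0.69 higher in LPS-G0 (SE 0.132, limma adjusted p = 0.00854), and it was the only member called, while 1140 of 10313 probes or 11.1% were called in place of 1. With array weights, which give less influence to arrays that deviate, Nfkbib was 0.67 higher (limma, adjusted p = 0.0135), and 11.4% of probes were called. On each of the 3 slides LPS-G0 was above C-G0, by 0.28, 0.65 and 0.61. On slides 2 and 3 each group had 1 array, and those of LPS-G0 were replicates 3 and 4, the arrays of conflicting labels. Without LPS-G0 replicates 3 and 4 the difference was 0.45 (limma, adjusted p = 0.601). On C-G0 replicate 1 the erythroid marker list stood at 0.36, the NK and cytotoxic list at -1.69 and the monocyte list at -0.86. Over the whole groups, all 6 tested NK and cytotoxic genes were higher in LPS-G0 than in C-G0 (median difference 0.91), with list means of -0.05 to 0.63 against -1.69 to -0.02, or -0.48 to -0.02 without C-G0 replicate 1, and all 5 tested neutrophil genes were lower (median difference -0.55), and none of them was called. The part of cell makeup in the Nfkbib difference was not tested.

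**Figure D2:**
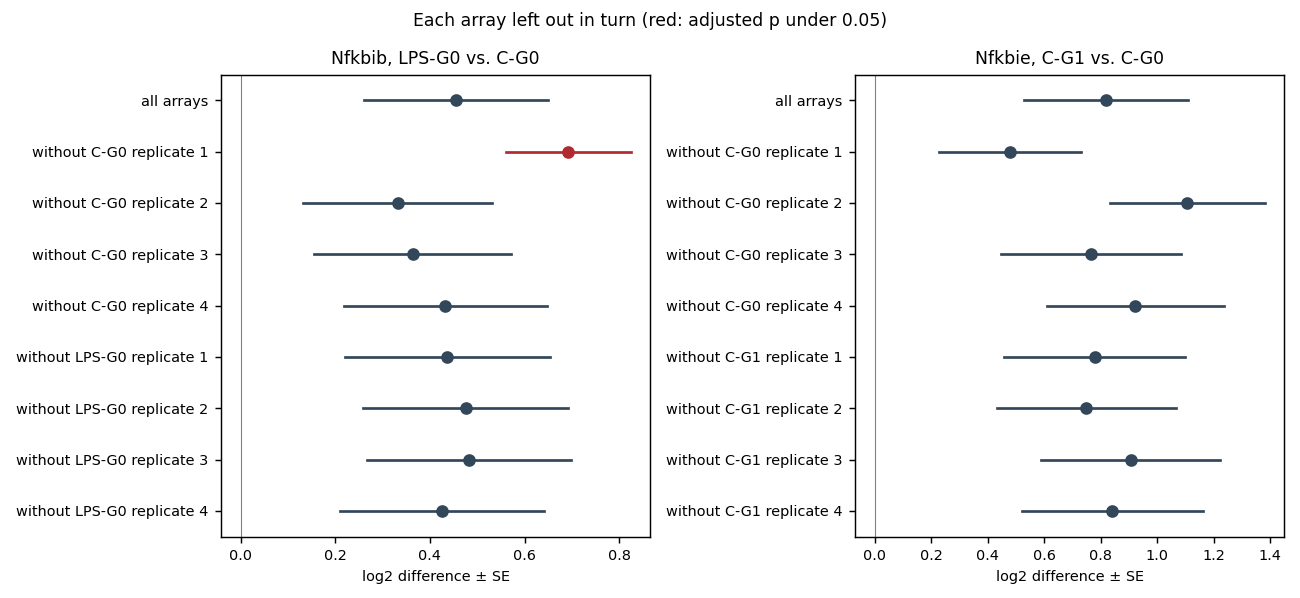
The log2 difference (x axis, with its SE) is shown for Nfkbib (LPS-G0 vs. C-G0) and for Nfkbie (C-G1 vs. C-G0), with all arrays and with each array left out in turn (y axis). Without C-G0 replicate 1 the Nfkbib difference was 0.69 and passed an adjusted p of 0.05, and the Nfkbie difference was 0.48.

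Both beta-glucan diets went with lower Nfkbib among the LPS-treated rats. The levels in LPS-G1 were 0.08, -0.06, -0.23 and -0.20, and those in LPS-G2 were 0.28, 0.12, -0.08 and -0.11. Every array of both groups lay below every array of LPS-G0, the control group that these comparisons share. LPS-G1 was lower by a difference of -0.52 (95% interval -0.93 to -0.11, limma adjusted p = 0.103) and LPS-G2 by a difference of -0.36 (-0.77 to 0.05, limma adjusted p = 0.597), each at the exact permutation p of 0.0286 that is the smallest possible. In LPS-G1 vs. LPS-G0, 1 member did not overlap, against 21.9% of probes. There 0 members and 8.93% of probes were called, and 1 member and 26.9% of probes had an unadjusted p under 0.05. In LPS-G2 vs. LPS-G0, 2 members did not overlap, against 10.5% of probes, and 0 members and 0% of probes were called, while 0 members and 8.23% of probes had an unadjusted p under 0.05.

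The difference between LPS-G1 and LPS-G0 in Nfkbib was negative on each slide (-0.33, -0.48 and -0.71). On slides 2 and 3 the LPS-G0 values were those of replicate 3 and replicate 4 alone, the arrays of conflicting labels. With slide as a block the difference between LPS-G1 and LPS-G0 was -0.46 (limma, adjusted p = 0.175). With array weights it was -0.55 and called (limma, adjusted p = 0.0053), together with 28.1% of all probes. It was negative under all 22 alternatives that were tried, which reuse the same arrays and are not independent. Because the groups did not overlap, leaving out arrays could not turn the sign, and another filter or variance model kept the difference. The count of alternatives is therefore no separate support. The alternatives other than leaving out 1 array, among them that without LPS-G0 replicates 3 and 4, gave -0.55 to -0.43. In LPS-G2 vs. LPS-G0 the Cy3 channel alone gave -0.14 in place of -0.36.

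Nfkbib was also the member that differed most between the G1 and G2 diets in rats without LPS. C-G1 read -0.28, -1.03, -0.35 and -0.45, the lowest group, and C-G2 read 0.55, -0.32, 0.48 and -0.15. They overlapped, and the difference of C-G2 over C-G1 was 0.67 (95% interval 0.21 to 1.13, limma p = 0.00617, adjusted p = 0.323, exact permutation p = 0.0571). In that comparison 0% of probes were called and 15.4% had an unadjusted p under 0.05, as 1 of the 7 members did, and 0 members and 3.22% of probes did not overlap. Without C-G1 replicate 2 the difference was 0.50 (limma, adjusted p = 0.86). The 2 beta-glucans differ in molecular weight, and after LPS the G2 group was 0.15 above the G1 group, with an interval of -0.26 to 0.56 (limma, adjusted p = 0.81).

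C-G1 lay below C-G0 in Nfkbib by a difference of -0.49 (limma p = 0.038, adjusted p = 0.162, exact permutation p = 0.143), and below LPS-G1 on every array. The difference for LPS-G1 vs. C-G1 was 0.43 (95% interval -0.03 to 0.89, limma adjusted p = 0.95). It was the only member without overlap there, against 2.73% of probes, and 0 members and 0.00934% of probes were called, while 0 members and 2.81% of probes had an unadjusted p under 0.05. Without C-G1 replicate 2 it was 0.26 (limma, adjusted p = 0.999), and without both arrays that stood apart C-G1 was only 0.08 below C-G0 (difference -0.08, limma adjusted p = 0.911). The mean of the erythroid list, which was lowest in C-G1 as Nfkbib was, was -0.67 in C-G1, -0.20 in C-G2, -0.19 in LPS-G1, 0.04 in LPS-G2, 0.11 in C-G0 and 0.11 in LPS-G0. Without C-G0 replicate 1 the erythroid mean in C-G0 was 0.03. The Nfkbib means were 0.14 in C-G2 and 0.41 in LPS-G0. Over the 24 arrays Nfkbib had a Pearson r of 0.718 with the erythroid list, and of 0.495 over the 22 arrays without both that stood apart. With the list of NF-κB kinases and adaptors r was -0.715, and -0.578 without them. With the monocyte list r was -0.525 over 24 arrays and -0.507 over 22, and with the neutrophil list it was -0.146 and -0.477. These are descriptions of arrays that share a reference. The part of red cell RNA or of other blood cells in the Nfkbib differences was not tested.

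Nfkbie, the gene of IκBε, was low in the rats on the control diet. C-G0 read -1.72, 0.16, -0.86 and -0.39, and LPS-G0 read -0.37, -0.23, -0.88 and -0.34. The medians were -0.38 over these 8 arrays and 0.18 over the 16 arrays of rats fed a beta-glucan, which ran from -0.66 to 0.60. Its signal cleared background on 16 of 16 beta-glucan arrays and on 5 of 8 control-diet arrays, so that the lowest values are those of dim spots. The probe was tested only because it cleared background on all arrays of the beta-glucan groups, where it was high. In C-G0 it did so on 2 of 4 arrays and in LPS-G0 on 3 of 4. The split in detection is therefore no separate support for the difference. The tests of Nfkbie between beta-glucan and control-diet groups were made on a probe kept in this way. Their p, intervals and lack of overlap are given as descriptions.

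In order, the Nfkbie means were 0.20 in LPS-G2, 0.17 in C-G2, 0.12 in C-G1, 0.06 in LPS-G1, -0.45 in LPS-G0 and -0.70 in C-G0. Neighbours in that order overlapped. C-G2 was above C-G0 by 0.88 (95% interval 0.28 to 1.48, limma p = 0.00597, adjusted p = 0.234, exact permutation p = 0.0571) and C-G1 by 0.82 (0.22 to 1.42, p = 0.00964, adjusted p = 0.131, exact permutation p = 0.0857), and the comparisons share the C-G0 arrays. In C-G1 vs. C-G0, 3 members had an unadjusted p under 0.05, against 27.9% of probes, 0 did not overlap, against 7.04%, and 0 members and 0.028% of probes were called. In C-G2 vs. C-G0, 1 member had such a p, against 13.3% of probes, 0 did not overlap, against 2.64%, and 0 members and 0.028% of probes were called.

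After LPS the same order held for LPS-G2, at 0.43, -0.11, 0.16 and 0.30, every array of which lay above every LPS-G0 array. The difference was 0.65 (95% interval -0.04 to 1.34, limma adjusted p = 0.597). LPS-G1 read 0.60, -0.66, 0.17 and 0.15, which overlapped with LPS-G0, and the difference was 0.52 (SE 0.325, limma adjusted p = 0.305). On each slide all 4 of these Nfkbie means on beta-glucan were above the matching control-diet mean, by 0.44 to 1.02. Each such mean held 1 or 2 arrays, and LPS-G0 on slides 2 and 3 was replicate 3 and replicate 4 alone.

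The Nfkbie differences from C-G0 were smaller without C-G0 replicate 1 and under another processing. Without that array C-G1 was 0.48 above C-G0 (limma, adjusted p = 0.502), and C-G2 was 0.54 above it (adjusted p = 0.38). After normexp background correction with an offset and loess, which were changed together, the differences were 0.17 and 0.26 (limma, adjusted p = 0.361 and 0.348). The monocyte list, 5 genes, had means from -0.86 to 0.07 in C-G0 and from -0.51 to -0.18 in LPS-G0. It ran from -0.10 to 0.09 in C-G1, from -0.25 to 0.07 in LPS-G1, from -0.25 to 0.14 in C-G2 and from -0.09 to 0.16 in LPS-G2. Nfkbie had an r of 0.719 with it over 24 arrays and 0.49 over 22 without both arrays that stood apart. Without C-G0 replicate 1 the list ran from -0.12 to 0.07 in C-G0. The part of monocyte number in the result was not tested.

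Nfkbia, the gene of IκBα and a direct target of NF-κB, was the brightest of the member probes. It read -0.72, 0.35, -0.14 and -0.23 in C-G0 and -0.08, 0.15, -0.35 and -0.04 in LPS-G0, which overlapped. LPS-G0 differed from C-G0 by 0.10, with an interval of -0.39 to 0.60 (limma, adjusted p = 0.871). In C-G1 it was 0.31, 0.75, 0.07 and 0.03, on average 0.48 above C-G0 (limma p = 0.0426, adjusted p = 0.169, exact permutation p = 0.171). C-G1 replicate 2 was the highest array and C-G0 replicate 1 the lowest, and without both the difference was 0.14 (limma, adjusted p = 0.861).

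Ikbkb, the IKKβ subunit of the kinase, ran from -1.31 to 0.40. In C-G0 it read -1.31, -0.16, -0.21 and 0.07, and in LPS-G0 -0.24, -0.71, -0.35 and -0.48. The groups overlapped, and the difference was -0.04 (limma, adjusted p = 0.952). Without C-G0 replicate 1, the lowest array of all 24, LPS-G0 was 0.35 below C-G0 (difference -0.35, limma adjusted p = 0.17). LPS-G1 lay 0.33 above LPS-G0 (interval -0.17 to 0.84, limma adjusted p = 0.374).

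**Figure D3:**
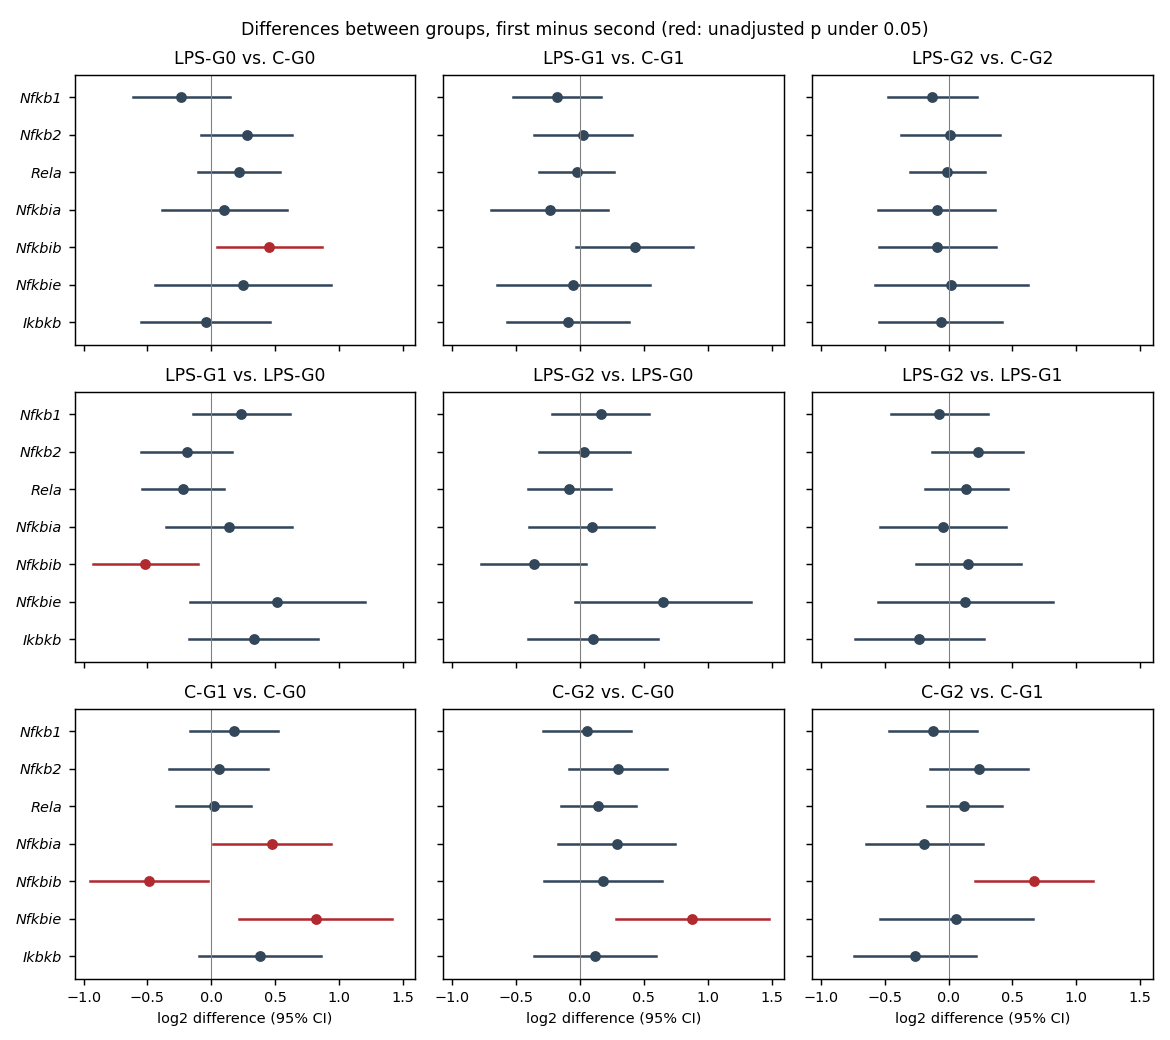
Log2 differences between groups (x axis, point with 95% confidence interval) are plotted for the 7 members (y axis) in 9 comparisons, red where the unadjusted p was under 0.05. The 7 red intervals belong to Nfkbia, Nfkbib and Nfkbie, and the comparison LPS-G2 vs. C-G2 held none.

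In LPS-G2 vs. C-G2 the members differed by -0.13 to 0.02, the smallest differences of any comparison. No member had an unadjusted p under 0.05, against 1.09% of probes, none was without overlap, against 1.07%, and 0 members and 0% of probes were called. In LPS-G2 vs. LPS-G1 the counts of members were also 0, against 6.68%, 6.65% and 0% of probes. Whether the response to LPS differed between diets was tested as a difference of differences. None of the 14 such tests of members had an unadjusted p under 0.05, against 3.01% of probes for G1 against G0 and 5.57% for G2 against G0, and 0 members and 0% of probes were called in both. The smallest p was 0.0973, for Nfkbib on G2 (difference of responses -0.54, 95% interval -1.19 to 0.11, limma adjusted p = 0.832).

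Rela, Nfkb2 and Nfkbib varied together whether or not the arrays that stood apart were counted. The Pearson r of Rela with Nfkb2 was 0.702 over 24 arrays and 0.716 over the 22 without those, and 0.635 and 0.655 after the group means were taken out. Nfkbib had an r of 0.614 with Rela and 0.552 with Nfkb2, and of 0.629 and 0.604 over the 22 arrays. With the group means taken out, its r with Rela was 0.551 over 24 arrays and 0.528 over 22, and with Nfkb2 0.518 and 0.657. The relations among Nfkb1, Nfkbia and Ikbkb were weaker without both arrays. The r of Nfkb1 with Nfkbia went from 0.621 to 0.451, that of Nfkbia with Ikbkb from 0.649 to 0.392, and that of Nfkb1 with Ikbkb from 0.55 to 0.373. Nfkbib had negative values with Nfkb1 (-0.53), Nfkbia (-0.495) and Ikbkb (-0.583). After the group means were taken out these were -0.312, -0.438 and -0.485, and with both arrays left out as well they were 0.17, 0.02 and 0.07. With both arrays left out and the group means kept, they were -0.335, -0.134 and -0.392. These arrays share a reference, and the values are descriptions.

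The genes most like a member over the 24 arrays were sought among 6849, and r over the 22 arrays is given after each. Dmwd was among those for Nfkbib (r = 0.938, then 0.903), and those for Nfkbie were Lmo2 (0.877, then 0.763) and Adora2a (0.861, then 0.734). Ikbkb was most like the ribosomal protein genes Rpl5l1 (0.867, then 0.738) and Rpl5 (0.86, then 0.727). Rela went with Ubb (0.833, then 0.844) and Ak3 (0.822, then 0.861), and Nfkb2 with Gpr132 (0.825, then 0.836) and Hm13 (0.825, then 0.83). Nfkbia went with Msmo1 (0.803, then 0.66) and Ppp2r5a (0.8, then 0.641), and Nfkb1 with Eif3f (0.757, then 0.699) and Mtif3 (0.754, then 0.708).

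**Figure D4:**
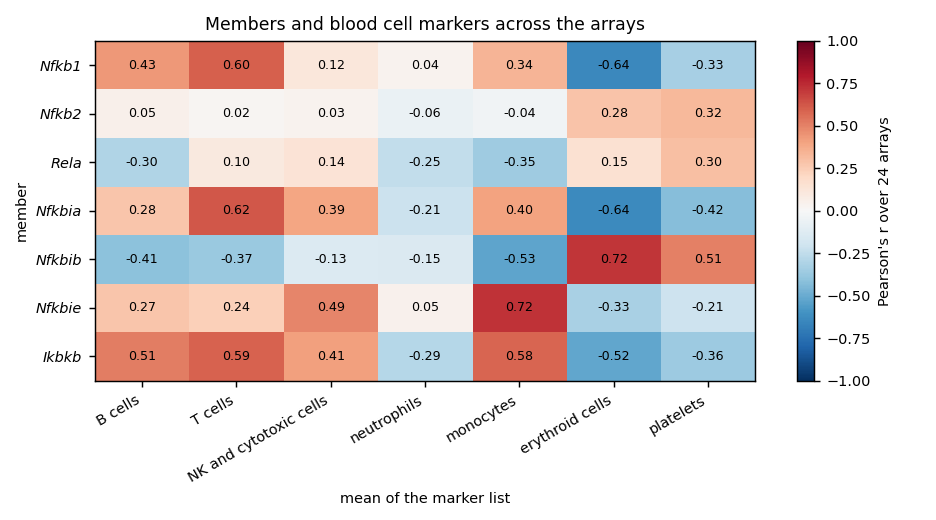
Pearson's r over 24 arrays between each tested member (y axis) and the mean of each list of blood cell markers (x axis) is shown by color and number. Nfkbib had its highest value with the erythroid list (0.718) and Nfkbie with the monocyte list (0.719), and without both arrays that stood apart these were 0.495 and 0.49.

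Among the other genes of the pathway, calls arose solely between LPS-G1 and LPS-G0. Of the kinases and adaptors, 20 of 21 were on the array and 12 were tested, with 0 called higher and 1 lower. Of the further IκB proteins and brakes, 15 of 19 were on the array and 10 were tested, with 0 higher and 1 lower. Of the known target genes 44 of 44 were on the array and 24 were tested, with 1 higher and 1 lower. Together 4 of 46 genes or 8.7% were called, about the share of 8.93% among all probes, so the count says nothing particular about the pathway. The median difference in that comparison was 0.16, 0.18 and 0.22 in the 3 lists, against 0.06 over all probes tested. The kinase genes Chuk, Ikbkg and Tbk1, the IκB gene Nfkbiz, the ligase gene Itch and the targets Il6, Cxcl1, Vcam1, Sele, Ptgs2 and Zfp36 were well above background on no array.

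Nfkbid, which encodes the nuclear inhibitor IκBNS, was at 0.73, 0.62, 0.29 and 0.75 in LPS-G0 and at -0.06, -0.06, -0.30 and -0.54 in LPS-G1. The groups did not overlap, and the difference was -0.84 (SE 0.223, limma adjusted p = 0.031). In C-G0 it was 0.61, -0.43, -0.70 and -0.24, lower than LPS-G0 by 0.79 on average (limma, adjusted p = 0.218), with C-G0 replicate 1 again the high array. In LPS-G2 it read 0.26, 0.28, -0.00 and 0.13, between the other LPS groups (difference from LPS-G0 -0.43, limma adjusted p = 0.597).

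Tank, an adaptor that binds TRAF proteins and dampens NF-κB signalling, was at 0.68, 0.34, 0.20 and 0.79 in LPS-G0 and at 0.02, -0.09, -0.41 and -0.28 in LPS-G1. It fell by 0.69 on the log2 scale (difference -0.69, limma adjusted p = 0.0357). Lta, the cytokine lymphotoxin alpha, was at 0.60, 0.47, 0.20 and 0.63 in LPS-G0 and at 0.07, -0.29, -0.44 and -0.50 in LPS-G1, a difference of -0.76 (limma, adjusted p = 0.0299). Cd40, the receptor through which T cells activate B cells and monocytes, moved the other way. It was at -0.66, -0.48, -0.51 and -0.81 in LPS-G0 and at -0.13, 0.48, 0.69 and 0.52 in LPS-G1, a rise of 1.01 (limma, adjusted p = 0.0328), and it was 0.85 higher in LPS-G2 than in LPS-G0 without overlap (limma, adjusted p = 0.597).

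**Figure D5:**
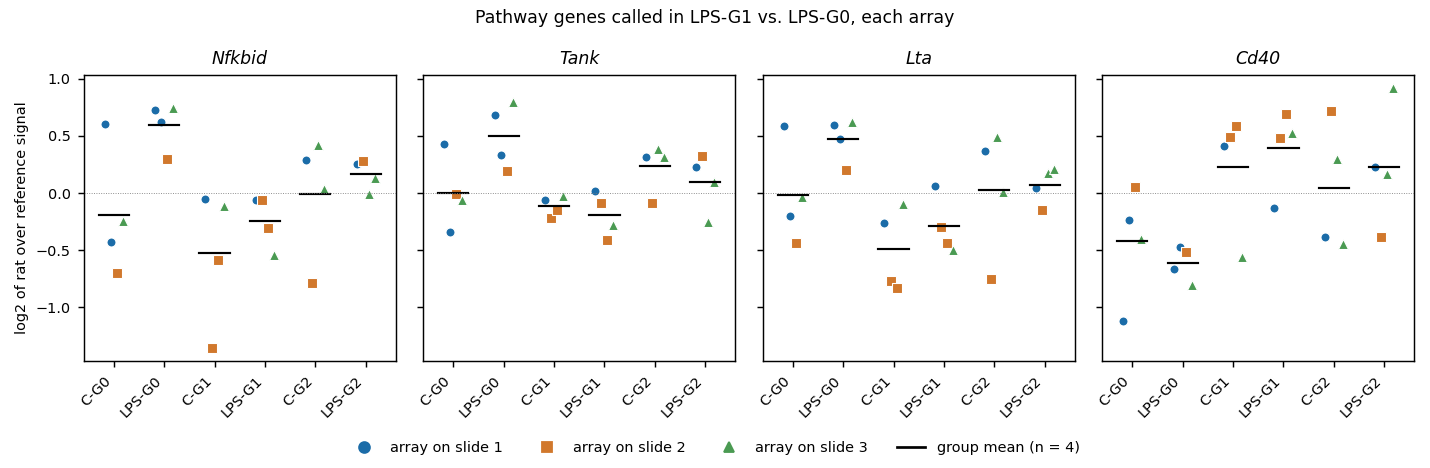
The log2 of rat over reference signal (y axis) of the 4 pathway genes called in LPS-G1 vs. LPS-G0 is plotted for each array in the 6 groups (x axis), with the marker showing the slide and the line the group mean. LPS-G0 was above LPS-G1 on every array for Nfkbid, Tank and Lta and below it for Cd40.

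Cell marker lists also shifted between LPS-G1 and LPS-G0, but the only marker gene called was 1 erythroid gene, which was lower. The monocyte list had a median difference of 0.42 with 4 of 5 genes higher, and the B-cell list of 0.38 with 3 of 4 higher. It was 0.30 in the neutrophil list with 4 of 5 higher, and 0.12 in the T-cell list with 4 of 6 higher. The erythroid list had -0.22 with 2 of 6 higher, and the NK and cytotoxic list -0.16 with 0 of 6 higher. In the platelet list it was -0.02 with 3 of 6 higher. The median of all probes tested was 0.06. The part of these cell markers in the differences of the 4 genes was not tested. On each slide all 4 genes differed in the direction given, but on slides 2 and 3 LPS-G0 had a single array, replicate 3 and replicate 4. Once slide entered the fit as a block, their adjusted p (limma) was 0.0583 for Nfkbid, 0.0683 for Tank, 0.0529 for Lta and 0.062 for Cd40, so none was called. Without LPS-G0 replicates 3 and 4 it was 0.127, 0.129, 0.127 and 0.153. Each was called in 2 of the 8 fits that left out 1 array of either group, namely when LPS-G0 replicate 3 or LPS-G1 replicate 1 was dropped.

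In the comparisons without a called gene, the list genes with the smallest p were the following. In LPS-G0 vs. C-G0 they were Map3k7, the kinase TAK1 (-0.52, limma adjusted p = 0.251), Nfkbid and the chemokine gene Ccl5 (0.57, adjusted p = 0.218). In LPS-G2 vs. LPS-G0 they were Tank (-0.40), the deubiquitinase gene Cyld (0.64) and the receptor gene Tlr2 (0.58), all at a limma adjusted p of 0.597. In LPS-G2 vs. LPS-G1 they were Tank (0.29), the A20-binding inhibitor gene Tnip2 (-0.63) and the adaptor gene Traf2 (-0.36). In C-G1 vs. C-G0 they were Myd88, the adaptor of TLR4 (0.55), its brake Irak3 (0.67) and the survival gene Bcl2l1 (-1.02, limma adjusted p = 0.104), which red cell precursors also use. In C-G2 vs. C-G0 they were Map3k7 (-0.75), Irak3 (0.33) and the adhesion gene Icam1 (0.66, limma adjusted p = 0.212). In C-G2 vs. C-G1 they were the adaptor gene Card9 (0.56), Tnip1 (0.39) and Birc3 (-0.58). In LPS-G1 vs. C-G1 they were Card9 (0.40), Tnip1 (0.51) and Ccl5 (0.52), and in LPS-G2 vs. C-G2 Map3k7 (0.34), Cyld (0.38) and Traf2 (-0.30).

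The known target genes as a list had means over 24 genes of -0.15 ± 0.168 in C-G0 and -0.17 ± 0.068 in LPS-G0, against 0.00 ± 0.022 in C-G1, -0.04 ± 0.081 in LPS-G1, -0.06 ± 0.119 in C-G2 and -0.00 ± 0.080 in LPS-G2 (SD, n = 4 each). Without C-G0 replicate 1, which was at -0.37, the C-G0 mean was -0.07, close to that of C-G2, and LPS-G0 had the lowest mean. In LPS-G0 vs. C-G0 the median difference of the list was -0.10 and 9 of 24 genes were higher, where the median of all probes was 0.03, and without that array the list median was -0.19. In C-G1 vs. C-G0 the median was 0.28 with 18 of 24 genes higher, and without both arrays that stood apart it was 0.12 with 15 of 24 higher. The r of the list with Nfkbie was 0.719 over 24 arrays and 0.546 over 22.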

How the data were processed

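Total RNA of blood from single rats was labelled and hybridized with a common reference on 24 arrays, which lay on 3 slides of 8 with all 6 groups on each. Per the file headers, the authors used Agilent Feature Extraction 10.10.1.1 (the labels name 10.7.3.1), with background subtraction and Lowess dye normalization. The deposited intensities of each channel and the deposited log10 ratios of Cy5 over Cy3 were used as given. All 1511424 log10 values that the authors also deposited as a table were identical to the array files. The labels put rat RNA in Cy3 and the methods in Cy5, and Cy3 was taken. The labels make the reference a pool of all rats, the methods a pool of rats not used on the arrays.

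The deposited log10 ratios were turned into log2 of Cy3 over Cy5. Control spots and outlier spots (679 to 1133 per array) were left out, and spots of a probe were averaged. A probe was tested when all 4 arrays of any group had it above background in Cy3, which left 10313 in a fit of 16 arrays (the LPS groups and C-G0) and 10708 in a fit of all 24. The former served LPS-G0 vs. C-G0 and the comparisons between LPS groups, and the latter the others. Tests were those of limma 3.58.1 in R 4.3.3 (with data.table version 1.17.8), two-sided, with Benjamini-Hochberg adjustment over all probes, and two-sided exact permutation tests over 70 arrangements. Simulated data with 200 changed probes served to check both fits. Replicates were single rats. Correlations of deviations from group means gave a mean of 0.111 for arrays of the same replicate number and also of the same slide, but the lowest was -0.307, so numbers were not used as pairs.

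The members and lists were chosen with earlier results of these data known. All members were named whatever their value. A gene was read by its brightest probe. The 2 genes most like each member were named, except 1 that is not reported here. From each pathway list up to 3 called genes per comparison were named, or the 1 with the smallest p where none was called. Values of such genes in further comparisons were added after they were seen. Promoters were those of the RefSeq table on GRCr8. Alternatives changed the background correction, channel, filter, variance model, slide, replicate block, labels in conflict, probes averaged, arrays in the fit and the test.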

Additional observations from a re-analysis of the deposited data

Results flagged for a closer look

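Nfkb1 on C-G0 replicate 1 was at -0.35 (log2 of rat over reference), while the other C-G0 arrays read 0.16 to 0.19. Its gap to the nearest of them was 0.933 of the range of the 4 arrays. It was the only one of 42 groups of 4 arrays, 7 members in 6 groups, in which a sample lay that far from the others, and about 1 in 20 would by chance. The same array was the lowest of all 24 for Nfkbie (-1.72), Nfkbia (-0.72) and Ikbkb (-1.31) and the highest for Nfkbib (0.67).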

How the results depend on the processing

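The count of members called was 0 in each of the 11 comparisons and tests of responses, and it stayed 0 under all alternatives but those named here. With array weights it was 1 (Nfkbib) in LPS-G0 vs. C-G0 and 1 (Nfkbib) in LPS-G1 vs. LPS-G0. With each array left out in turn it ran from 0 to 1 in LPS-G0 vs. C-G0, the 1 without C-G0 replicate 1, and it was 1 without both arrays that stood apart, an alternative chosen after seeing the data. No difference of a member that was called under any setting turned its direction, and of 1704 values under alternatives 117 had another sign than the reported one, the largest reported difference among these being 0.30. Alternatives that kept the group means, such as another filter or variance model, could not turn a sign. With the replicate block the count of members stayed 0 in all 11, while the probes called went from 921 to 1269 in LPS-G1 vs. LPS-G0 and from 3 to 600 in C-G1 vs. C-G0. Probes called in LPS-G1 vs. LPS-G0 were 336 with slide as a block, 0 without the arrays of conflicting labels, 0 from Cy3 alone, 0 without the filter, 3 with all 24 arrays in 1 fit, 1 with the methods' analysis of variance and Tukey's HSD, and 0 to 1264 with 1 array left out. Tnfaip3 and the dimmer Rela probe were too dim for any fold.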
